A study of Mus musculus with 18 samples.

Results

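The transcripts described here are those of the mouse histone genes, the genes for the proteins around which nuclear DNA is wound. They were chosen by name from the gene tables of a culture series of kidney proximal tubules: every gene whose symbol began with Hist1h to Hist4h, H2af, H3f3 or H1f, with names ending in -ps left out. The rule found 87 of 55421 genes. Of these, 69 carry names of the replication-dependent clusters (6 linker H1, 20 H2A, 18 H2B, 12 H3 and 13 H4 genes). By name, 56 are of cluster 1 on chromosome 13 and 10 of cluster 2 on chromosome 3. Cluster 3 on chromosome 11 has 2 and cluster 4 on chromosome 6 has 1. Hist1h2al, a processed pseudogene at chr13:51202727-51203065, lies apart from the other Hist1h genes but is counted with them as a cluster gene. The other 18 are variant genes outside the clusters: 10 H2A variants, 4 linker H1 variants, 3 H3.3 genes and H3f3aos, an RNA antisense to H3f3a. GENCODE calls 4 of the members pseudogenes (Hist1h2aj, Hist1h2al, H2afy3 and H3f3c).

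Polyadenylated RNA was sequenced from 18 libraries, 3 (replicates A, B and C) from freshly isolated tubules on day 0 and from cultures on days 1, 2, 4, 7 and 14. The donors were female C57BL/6J mice, 6 weeks old, and the tubules were freed from the kidney with collagenase, enriched on Percoll and grown on ordinary culture plastic without passage. All 18 libraries are labelled wild type and untreated, with no transgene or agent, and differ in culture time. Replicates are labelled as biological, without a tie to separate animals or cultures, so the p-values measure the spread between these libraries, which may be technical. Libraries held 23799559 to 37579097 estimated counts. Levels are in CPM (read counts relative to library size, scaled between libraries), and only TPM (transcript levels that also divide by length) are used to set genes against each other. Differences are log2 fold changes with standard errors (SE), and "rose" and "fell" mean a Benjamini-Hochberg adjusted p under 0.05 in edgeR's quasi-likelihood test over 18754 genes, from which every adjusted p below comes. After scaling, the median log2 fold change over all genes lay between -0.06 and 0.16 in the 7 comparisons, but by library sizes alone it was 0.29 on day 1 against day 0, 0.57 on day 4 against day 0 and 0.72 on day 14 against day 0, so fold changes against day 0 are relative to the scaling.

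Over all genes, library C of day 7 stood apart: its mean correlation with the day 4 libraries was 0.975 (0.952 and 0.953 for replicates A and B) and with the day 14 libraries 0.948 (0.981 and 0.982). Most values that rest on day 7 are therefore given for each library, or with and without it. Ranges of day means, and calls in the lists of replication and histone-handling genes, include it. The labelled cell type was carried by its markers on day 0 and faded in culture. The summed level of 7 proximal tubule markers was 17091 to 19770 CPM on day 0 and 3525 to 7010 on day 1. It was 623 to 1198 CPM on day 2 and 24.0 to 39.1 on day 4. All 7 fell at each of these steps, beside 37.1%, 17.5% and 22.1% of all genes. Markers of other cells also moved: the 3 thick limb and distal markers went from 3764 to 4708 CPM on day 0 to 4.13 to 8.86 on day 4. The 3 fibroblast markers summed to 16 to 17.5 CPM on day 0, 41.3 to 62.3 on day 2, 10.6 to 20.5 on day 4 and 80.0 to 113 on day 14. On day 14 against day 0, 2 of the 3 rose and 1 fell, beside 37.4% and 32.1% of all genes. The part of these other cells in the histone values was not tested. In bulk RNA, fewer cells of a type and less RNA per cell cannot be told apart.

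Replication-dependent histone mRNAs are made in S phase, when new DNA needs new nucleosomes. They usually end without a poly(A) tail, in a short hairpin that is bound by the stem-loop binding protein SLBP, and they are degraded when DNA synthesis stops. Variant histone genes, such as those for H2A.Z and H3.3, have introns or ordinary poly(A) tails and are expressed through and outside the cell cycle. Adult proximal tubule cells divide rarely, but they re-enter the cell cycle after injury and in culture. A poly(A)-selected library samples the replication-dependent genes only through transcripts that carry a tail or were carried along, so their levels here are levels in that fraction, and the unpolyadenylated bulk was not measured.

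The hairpin that gives these mRNAs their usual end is shown first, because the annotated transcripts differ in whether they stop at it. The 6-base stems are in capitals and the loops in lower case. A search of the annotated transcripts (GENCODE vM21, GRCm38) found it in 43 members, 42 of the 69 replication-dependent genes and 1 variant.
H1, H2A, H2B and H3 genes, 26 of them: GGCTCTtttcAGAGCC
H1, H2B and H3 genes, 6 of them: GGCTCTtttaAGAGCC
Hist2h2ac: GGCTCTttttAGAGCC
H4 genes, 7 of them: GGCCCTtttcAGGGCC
H4 genes, 2 of them: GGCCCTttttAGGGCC
H2afx: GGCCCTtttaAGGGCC
The H4 genes and H2afx share a stem that differs from that of the other genes by a base pair, and H2afx, the gene of the DNA damage histone H2A.X, was the sole variant with a hairpin. In 21 of the 42 replication-dependent genes the annotated transcript ended within 100 bases of it, as in Hist1h2ap (3 bases after) and Hist1h2ao (31 bases after), and in the other 21 it ran on, by 840 bases in Hist1h1c, 1643 in Hist3h2a, 1861 in Hist1h2be and 4884 in Hist1h1d. The remaining 27 had no match in the annotated transcripts, Hist1h2bc and Hist1h1b among them, which says only that these letters are not in the annotated models.

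Some annotated transcripts end beside a poly(A) signal. The signal (AATAAA or ATTAAA) is in capitals in these stretches of at most 30 bases from within the last 50 bases of the annotated transcript.
Hist1h1c: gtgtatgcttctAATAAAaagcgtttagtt
Hist3h2a: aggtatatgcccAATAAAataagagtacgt
Hist1h2be: gttgtgttccttATTAAAgcattcctgatt
Hist2h2be: gttattattattAATAAAgttaccgattag
H2afx: tgggctaattttATTAAAggatcgtttggt
H2afz: ctctgcttactaATTAAAcagtgcatctgt
No such signal lay in the last 50 bases of Hist1h2ap, Hist1h2ao, Hist1h1b, Hist1h2bc, Hist1h1d or Hist1h4d. H2afx carried both a hairpin and, 822 bases after it at the end of the transcript, a poly(A) signal.

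Promoter windows are shown for 3 members because they bear on the results below: the bidirectional region between Hist1h2ap and Hist1h2br, the linker gene Hist1h1b, which had 0 counts on day 0, and H2afz, a variant with its highest level on day 4. Each is the 250 bases before the RefSeq start (GRCm38.p6), with CCAAT, ATTTGCAT (the octamer) and TATAAA in capitals on either strand.
Hist1h2br, chr13:21833493-21833742, plus strand: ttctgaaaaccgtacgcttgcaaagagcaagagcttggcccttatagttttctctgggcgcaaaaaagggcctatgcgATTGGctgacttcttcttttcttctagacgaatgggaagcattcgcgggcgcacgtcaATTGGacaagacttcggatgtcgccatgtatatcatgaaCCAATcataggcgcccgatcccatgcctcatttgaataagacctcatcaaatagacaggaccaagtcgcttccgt
Hist1h1b, chr13:21780626-21780875, minus strand: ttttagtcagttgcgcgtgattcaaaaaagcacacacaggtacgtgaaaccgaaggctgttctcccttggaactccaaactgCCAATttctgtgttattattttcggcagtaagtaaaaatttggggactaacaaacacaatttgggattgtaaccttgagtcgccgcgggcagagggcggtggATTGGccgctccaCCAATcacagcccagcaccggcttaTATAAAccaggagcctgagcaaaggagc
H2afz, chr3:137864237-137864486, plus strand: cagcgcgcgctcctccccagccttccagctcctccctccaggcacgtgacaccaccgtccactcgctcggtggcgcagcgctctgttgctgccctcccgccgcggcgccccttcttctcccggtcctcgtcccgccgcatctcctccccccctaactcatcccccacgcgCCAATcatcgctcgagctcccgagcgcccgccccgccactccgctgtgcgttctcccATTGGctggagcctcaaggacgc
The Hist1h2br window held the first bases of Hist1h2ap on the other strand, and all its 250 bases were the same as in the window of Hist1h2bq, which lies between that gene and Hist1h2ao. Hist1h1b had 3 CCAAT matches and a TATAAA match, and H2afz 2 CCAAT matches and no TATAAA match. RefSeq promoters were matched to 77 members, 1 of which, Hist1h2be, had more than 1. Over 300-base windows on both strands, ATTTGCAT stood in 14 of 63 replication-dependent promoters (22.22%), all of them H2A or H2B genes, in 6.67% of 15 variant promoters and in 1.74% of 32851 promoters in all. CCAAT was found in 85.71%, 66.67% and 37.41%, and TATAAA in 55.56%, 6.67% and 13.62%. TTTGGCGC, searched as an E2F site, was in none of the member promoters and in 0.51% of all promoters. Matches of different motifs can overlap, and a match describes the letters only.

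By length-adjusted level, the variants led. Averaged over the 18 libraries, H3f3b (790 TPM), H3f3a (704 TPM), H2afz (669 TPM) and H1f0 (234 TPM) stood above every replication-dependent gene, of which Hist1h2ap (203 TPM), Hist1h2bc (158 TPM) and Hist1h1c (110 TPM) were highest. The replication-dependent share of all histone CPM was 18.3 ± 0.679% on day 0, 8.62 ± 0.533% on day 4 and 15.6 ± 1.68% on day 14 (mean ± SD, n = 3). This is a share of reads, not adjusted for length. In TPM the cluster and variant sums had means of 539 and 1580 on day 0 and 1291 and 4083 on day 4. On day 14 they were 774 and 3203 TPM, so the drop of the CPM share on day 4 should not be read as one in TPM. Summed over the 69 genes, the level was 434, 395 and 446 CPM in the day 0 libraries and 272, 306 and 317 CPM on day 4, without overlap. On the TPM scale the same sum was higher on day 4, 555, 502 and 559 TPM on day 0 against 1221, 1335 and 1317 on day 4, so the direction of the class as a whole depended on the scale. Hist1h2ap and Hist1h2ao, high on day 4, have annotated transcripts of 482 and 480 bases, beside 1156 for Hist1h2bc and 1560 for Hist1h1c, and the median of all genes on the log2(TPM + 1) scale was itself 0.58 higher on day 4 than on day 0. The variant sum was higher on day 4 on both scales, 1898 ± 70.8 CPM against 3164 ± 165 CPM and 1579.8 ± 45.4 TPM against 4083 ± 142 TPM. Sums are shares of reads and carry no test.

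The summed families inside the clusters went separate ways, and the day 4 extremes of H2A and H2B held on both scales. Few genes carried these sums: Hist1h2ap and Hist1h2ao had means of 114 and 35.1 CPM on day 4. Hist1h2bc, an H2B gene, had 233 CPM on day 0 and 32.5 on day 4. Cluster H2A mRNA stood at 84.8, 80.4 and 87.2 CPM on day 0, 168, 191 and 188 CPM on day 4 and 63.6, 79.3 and 69.1 CPM on day 14, highest on day 4. Cluster H2B mRNA did the reverse, with 243, 252 and 248 CPM on day 0, 47.4, 47.8 and 49.2 CPM on day 4 and 98.9, 128 and 106 CPM on day 14. H2A and H2B proteins pair in equal amounts in the nucleosome. By length, their cluster mRNAs in these libraries summed to 187 ± 10.8 TPM for H2A and 266 ± 0.645 for H2B on day 0, and to 1109.9 ± 55.3 and 76.5 ± 3.94 on day 4 (mean ± SD, n = 3). Cluster H1 mRNA changed late: the 3 day 4 libraries held 45.5, 53.0 and 62.0 CPM, those of day 7 135, 219 and 43.8 CPM and those of day 14 203, 303 and 234 CPM, and day 7 library C lay just below the day 4 libraries. H3 and H4 cluster mRNA was scarce throughout, with means of 1.36 to 5.32 CPM for 12 H3 genes and 5.69 to 11 CPM for 13 H4 genes. By length, the cluster H3 genes summed to means of 1.76 to 13 TPM over the days and the H3.3 genes to 823 to 2077 TPM.

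**Figure D1:**
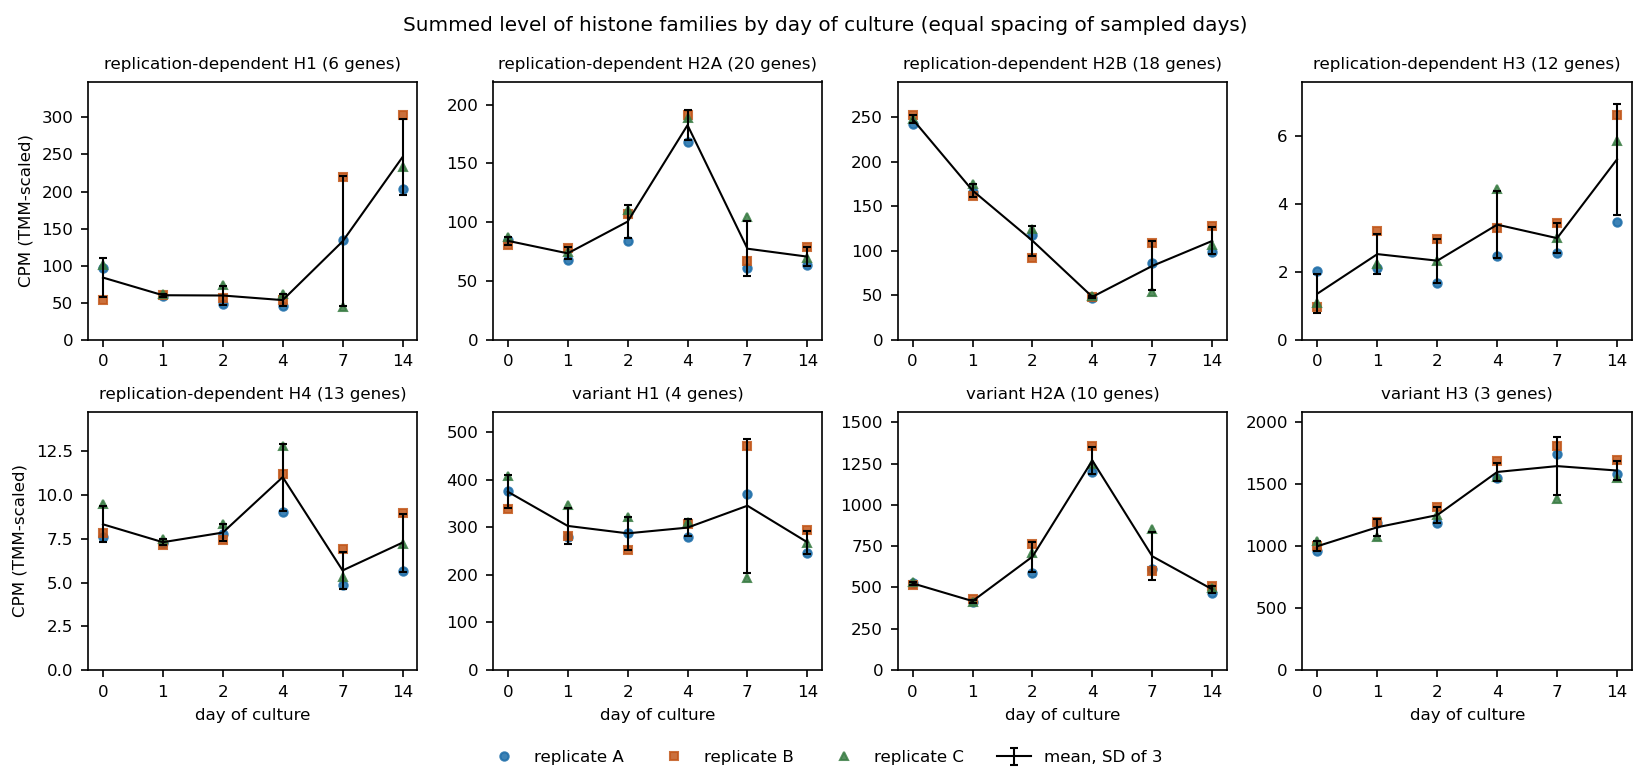
Summed CPM of each histone family (vertical axes) over the days of culture (horizontal axes), for the replication-dependent clusters and the variants; points are the 3 libraries of a day, lines join their means and bars are the SD. Cluster H2A and variant H2A sums are highest on day 4, where the cluster H2B sum is lowest.

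Hist1h2ap and Hist1h2ao, H2A genes of cluster 1 at chr13:21833026-21833507 and chr13:21810465-21810944, made up most of the day 4 level of cluster H2A. Hist1h2ap had 0.852, 0.540 and 0.770 CPM in replicates A, B and C on day 0 and 0.920, 0.813 and 0.471 CPM on day 1. It had 23.6, 43.0 and 39.1 CPM on day 2, 99.9, 125 and 118 on day 4, 12.8, 10.9 and 55.5 on day 7 and 4.10, 5.91 and 4.14 on day 14. The day 4 libraries lay above all others, the day 0 and day 1 libraries below all others, and day 7 library C lay above day 2 and apart from its 2 partners. The log2 fold change was 5.58 ± 0.60 (adjusted p = 6.5e-06) on day 2 against day 1 and 1.70 ± 0.45 (adjusted p = 0.00635) on day 4 against day 2. Day 7 against day 4 gave -2.12 ± 0.45 (adjusted p = 0.002), and -3.27 without day 7 library C (adjusted p = 2.82e-08). The step to day 14 gave -2.48 ± 0.48 (adjusted p = 0.00404), and -1.34 without that library (adjusted p = 0.00106). With only the libraries of the days compared, both steps lost the call (adjusted p = 0.0584 and 0.123). By length, Hist1h2ap reached 688, 834 and 769 TPM on day 4, beside 1546, 1704 and 1599 TPM for H2afz.

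Of the 50-base words in the Hist1h2ap transcript, 93.1% also stand in that of Hist1h2ao, so the estimated counts of these 2 genes can be split between them in either direction and their sum is firmer than each value. The sum went from 1.19 ± 0.189 CPM on day 0 and 1.21 ± 0.222 on day 1 to 47.1 ± 13.8 on day 2 and 149 ± 11 on day 4, and was 6.90 ± 1.03 on day 14 (mean ± SD, n = 3). In the day 7 libraries it was 17.6, 15.4 and 72.7 CPM. It made up 0.279 ± 0.0284% of all replication-dependent CPM on day 0 and 50.3, 51.8 and 48.0% in the day 4 libraries. Without these 2 genes the remaining 67 summed to 424 ± 26.5 CPM on day 0, 149 ± 14.8 on day 4 and 434 ± 76.6 on day 14, so their sum was lowest on day 4. Much of that fall was Hist1h2bc, with means of 233 CPM on day 0 and 32.5 on day 4. Gene by gene, 13 of all 39 tested cluster genes had their highest mean on day 4 and 12 their lowest.

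Several less abundant genes had the same peak. Hist1h2ae, another H2A gene, went from 0, 0.0360 and 0.154 CPM on day 0 to 5.85, 6.21 and 7.29 CPM on day 4 (6.67 ± 0.78, adjusted p = 9.55e-07; without day 0 library C 8.03). Hist1h1b, the linker histone H1.5 gene, had 0 counts in all 3 day 0 libraries, 1 count on day 1, and 2.85, 2.21 and 4.05 CPM on day 4, at least 68.6-fold higher than the floor of 3 counts over the day 0 libraries. Hist1h2ab and Hist1h2af, also H2A genes with 0 counts on day 0, were at least 30.1-fold and 33.6-fold higher on day 4. For such genes the fitted fold depends on the prior count and is not given. Hist1h1b, Hist1h2ab and Hist1h2af had their highest mean on day 4, so they may have passed the filter through the day compared. Of the 50-base words of Hist1h2ae, Hist1h2ab and Hist1h2af, 43.2%, 58.0% and 79.7% stand in transcripts of other genes. How far reads of more abundant H2A genes were divided among them was not tested. Among the H4 genes, Hist1h4d had 1.75, 2.73 and 3.50 CPM on day 2 and 4.78, 5.39 and 7.15 CPM on day 4 (1.12 ± 0.31, adjusted p = 0.0081), and Hist1h4i had 1.18, 1.61 and 1.85 and 2.94, 4.06 and 3.52 CPM (1.18 ± 0.31, adjusted p = 0.0063). In both, the day 2 and day 4 libraries did not overlap. On day 7 they fell again, Hist1h4d with -1.32 ± 0.31 (adjusted p = 0.00352) and Hist1h4i with -1.35 ± 0.31 (adjusted p = 0.00338). Without day 7 library C the values were -1.52 and -1.23.

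Hist1h2bc had the opposite course. This H2B gene at chr13:23684199-23692908, had 226, 239 and 233 CPM on day 0, 153, 149 and 161 on day 1, 102, 77.3 and 108 on day 2 and 32.8, 31.6 and 33.1 on day 4. It then stood at 70.5, 85.4 and 45.8 CPM on day 7 and 83.5, 105 and 89.6 on day 14. The 3 libraries of each day lay below those of the sampled day before up to day 4, and all 6 late libraries lay above day 4. Day 4 against day 0 gave a log2 fold change of -2.84 ± 0.18 (adjusted p = 7.01e-10), and day 7 against day 4 gave 1.05 ± 0.17 (adjusted p = 0.000285). Its level on day 14 was still below that of day 0 (-1.33 ± 0.17, adjusted p = 3.44e-06).

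The trough on day 4 was shared by members of other families. Hist2h2aa1 and Hist2h2aa2 are H2A genes of cluster 2 whose reads cannot be separated (100% of the 50-base words of Hist2h2aa2 stand in Hist2h2aa1). They summed to 43.3 ± 1.62 CPM on day 0, 6.31 ± 0.740 on day 4 and 16.6 ± 1.12 on day 14. Gm20634, not a member, overlaps Hist2h2aa1 on the same strand and holds 89.4% of its 50-base words. How far reads were divided with it was not tested. Hist3h2a, the H2A gene of cluster 3, had 36.8, 34.9 and 38.8 CPM on day 0, 13.7, 15 and 15 on day 4 and 38.5, 48.6 and 42.4 on day 14 (day 4 against day 0 -1.33 ± 0.16, adjusted p = 1.07e-06). Days 0 and 14 overlapped. Its transcript overlaps Trim17 on the same strand, which holds 31.5% of its 50-base words. Hist1h4h, an H4 gene, went from 2.65, 3.21 and 3.95 CPM on day 0 to 0.348, 0.390 and 0.387 on day 4 (-3.11 ± 0.34, adjusted p = 5.24e-07), and Hist1h2be, an H2B gene that overlaps the H1 gene Hist1h1e on the same strand, from 2.39, 2.54 and 3.10 CPM on day 2 to 0.506, 0.455 and 0.247 on day 4 (-2.71 ± 0.40, adjusted p = 6.14e-05). Thus an H4 gene and 2 H2A loci fell over the days in which other H4 and H2A genes rose. Hist2h2be, an H2B gene with a poly(A) signal and no hairpin in its annotation, passed no test in any comparison and kept to day means of 6.61 to 12.4 CPM.

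Among the cluster linker genes, Hist1h1c and Hist1h1d were highest on day 14. Hist1h1c, the gene of linker histone H1.2 at chr13:23738808-23740367, had 93.5, 51.2 and 95.7 CPM on day 0, 36.7, 44.4 and 48.3 on day 4, 129, 208 and 38.8 on day 7 and 192, 288 and 220.2 on day 14. The day 14 libraries lay above all of day 0, while day 7 was split, with library C inside the day 4 range. Against day 0, day 14 gave 1.54 ± 0.40 (adjusted p = 0.00297). Day 7 against day 4 gave 1.54 ± 0.41 (adjusted p = 0.00758), which was not called without day 7 library B (0.96, adjusted p = 0.0635) or with only the libraries of those days (adjusted p = 0.0886), and was 1.97 without library C. Hist1h1d, the H1.3 gene, went from 0.379, 0.252 and 0.873 CPM on day 0 to 7.12, 9.80 and 8.28 on day 14 (4.11 ± 0.63, adjusted p = 2.46e-05; without day 0 library C 4.73). Hist1h1e, the H1.4 gene, had day means of 3.21 to 5.51 CPM, highest on day 4 as in Hist1h1b. Hist1h4c, an H4 gene, had its lowest levels late, from 1.28, 1.40 and 1.08 CPM on day 0 to 0.0311, 0.0712 and 0.0326 on day 14 (-4.70 ± 0.58, adjusted p = 2.04e-06).

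**Figure D2:**
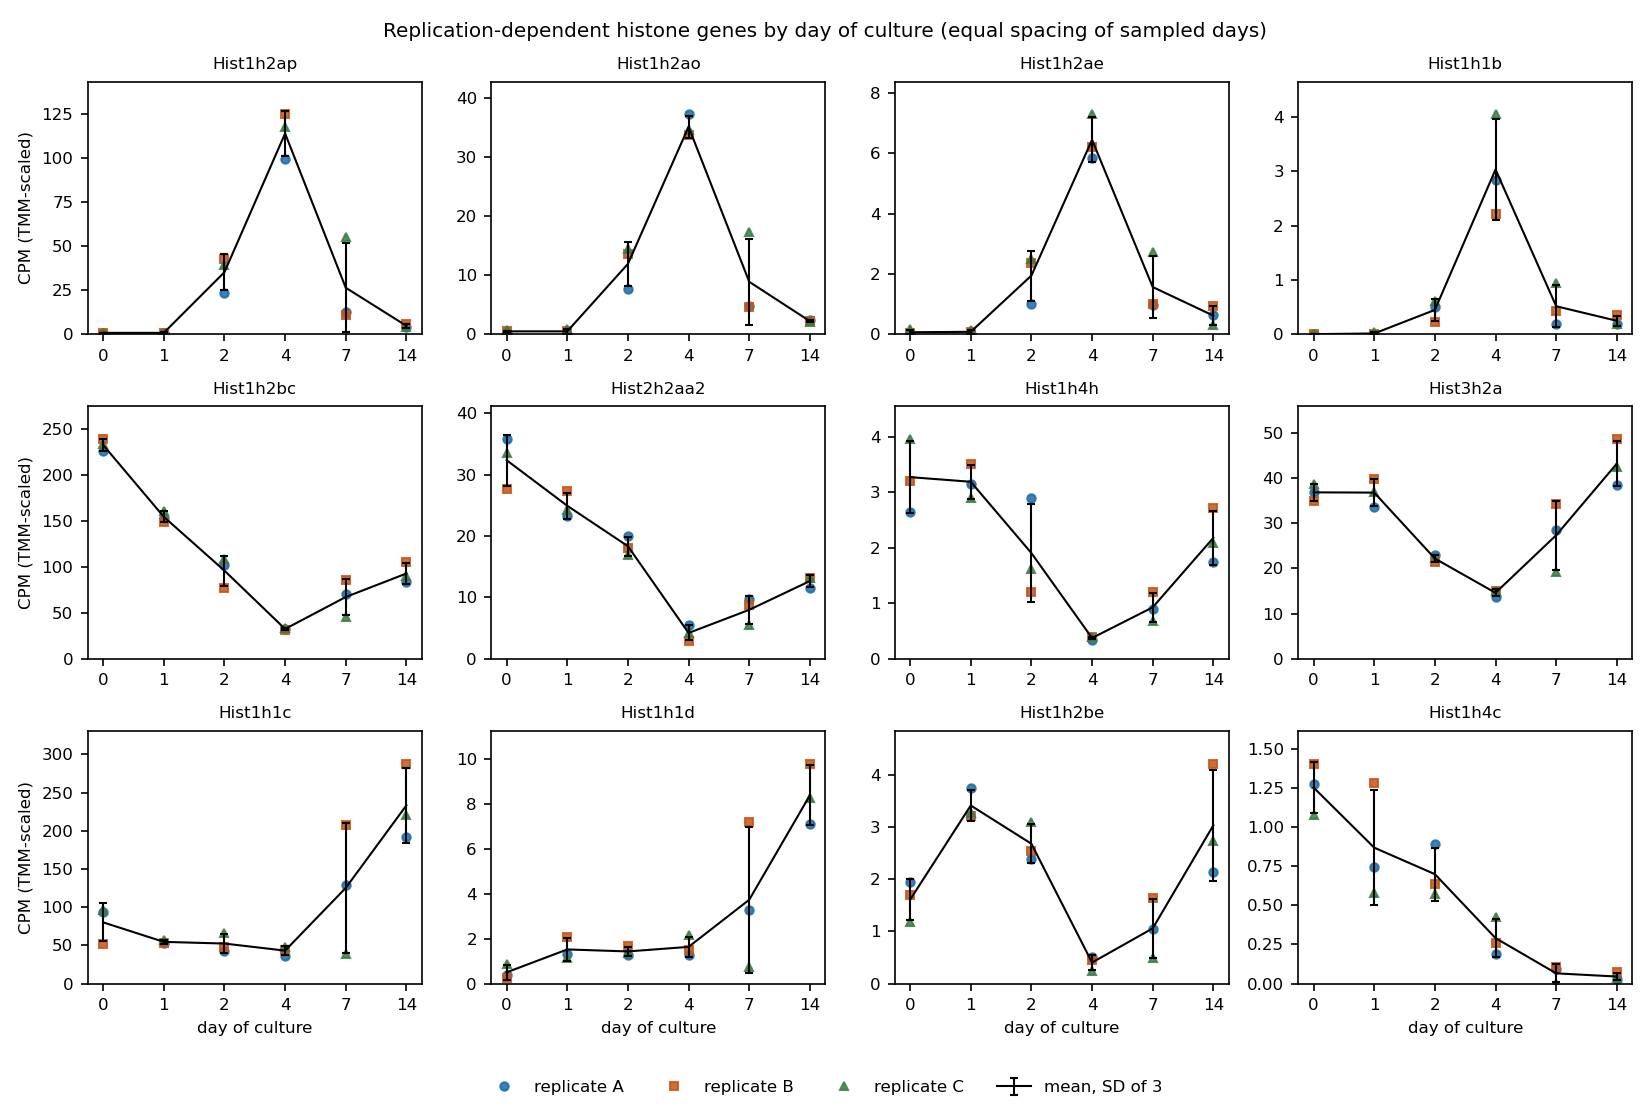
CPM of named replication-dependent genes (vertical axes) over the days of culture (horizontal axes); points are the 3 libraries of a day, lines join their means and bars are the SD. Hist1h2ap and Hist1h2ao peak on day 4, where Hist1h2bc and Hist3h2a are lowest, and Hist1h1c is highest on day 14.

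The remaining named cluster genes were scarce. Hist1h2al, listed as a pseudogene, had a mean of 1.51 CPM on day 0 and 0.154 on day 4 (-3.26 ± 0.49, adjusted p = 1.63e-05). Of its 50-base words, 65.5% stand in Hist2h2aa2, and how far reads were divided between them was not tested. Hist1h2ac, an H2A gene, had day means of 0.721 to 2.07 CPM. Over the 39 tested cluster genes, the highest day mean fell on day 4 in 13, on day 14 in 12 and on day 0 in 8, and the lowest on day 4 in 12 and on day 0 in 11, so day 4 was an extreme in both directions. Of the other members, 36 (30 cluster genes and 6 variants) were too low to test, with 0 to 96 counts over all 18 libraries. Hist1h2aa, H1fnt, H2afb1, H2afb2 and H2afb3 had 0 counts, which allows up to 0.00594 CPM for each (3 counts over the 18 libraries, counting error only). The testis genes Hist1h1t and Hist1h2ba had 6 and 3 counts.

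Day 4 also marked the H2A variants. H2afz, the gene of H2A.Z, a variant placed at promoters by exchange, had 222, 211 and 215 CPM on day 0, 189, 184 and 184 on day 1, 327, 466 and 419 on day 2 and 831, 950.4 and 876 on day 4. It came back to 287, 292 and 505 CPM on day 7 and 202, 226 and 219 on day 14. All day 4 libraries lay above all others, and days 0 and 14 overlapped. The gene is at chr3:137864487-137866922. The log2 fold changes were 1.12 ± 0.17 (adjusted p = 0.000139) on day 2 against day 1 and 1.13 ± 0.17 (adjusted p = 9.45e-05) on day 4 against day 2. Day 7 against day 4 gave -1.29 ± 0.17 (adjusted p = 7.3e-05) (-1.61 without day 7 library C). Day 14 against day 0 was not called (0.00 ± 0.17), but by library sizes alone it was 0.56 (adjusted p = 0.0144), and the mean TPM was 253 on day 0 and 449.6 on day 14. H2afx, whose annotated transcript holds both a hairpin and a poly(A) signal, was also highest on day 4. It had 21.1, 15.8 and 20.3 CPM on day 0, 113, 131 and 117 on day 4 and 35.5, 39.2 and 38.0 on day 14. Unlike in H2afz, its day 14 libraries all lay above those of day 0. It rose at each step to day 4 (2.66 ± 0.18, adjusted p = 1.84e-09 over the 4 days) and fell after it (-1.26 ± 0.17, adjusted p = 8.06e-05, and -1.54 without day 7 library C).

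The other H2A variants had other courses. H2afv, the gene of the closely related H2A.Z.2, had 72.7, 90.0 and 76.1 CPM on day 0 and 18.1, 25.1 and 13.2 on day 1 (-2.08 ± 0.16, adjusted p = 1.41e-08), and was still lower on day 14 (-1.58 ± 0.16, adjusted p = 2.21e-07). H2afz and H2afv encode nearly the same protein, and over the first 4 days their mRNAs changed in opposite directions (2.03 ± 0.18, adjusted p = 3.36e-08 against -1.89 ± 0.16, adjusted p = 2.54e-08). H2afy, the gene of macroH2A1, a large variant of silent chromatin, had 127, 119.7 and 132 CPM on day 0 and 183, 201 and 184 on day 4 (0.59 ± 0.07, adjusted p = 7.8e-07). H2afy2, the gene of macroH2A2, had day means of 8.51 to 14.9 CPM. H2afj had 69.2, 65.5 and 77.3 CPM on day 0 and 37.4, 41.3 and 35.8 on day 4 (-0.89 ± 0.08, adjusted p = 6.46e-08), and on day 14 it was lower than on day 0 in CPM (-0.74 ± 0.08, adjusted p = 6.27e-07) but not in TPM (0.02 in limma on log2(TPM + 1)).

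The H3.3 genes, which supply the H3 used outside replication, were the most abundant members, and they diverged on day 1. H3f3b had 479, 509.8 and 556 CPM on day 0, 942, 933 and 829 on day 1, 1174, 1281 and 1166 on day 4 and 1082, 1177 and 1059.7 on day 14. Its day 1 libraries all lay above day 0 (0.81 ± 0.09, adjusted p = 9.86e-07), and it was 1.10 ± 0.09 on day 14 against day 0 (adjusted p = 2.31e-08). H3f3a had 478, 487 and 482 CPM on day 0, 244, 262 and 241 on day 1, 677, 674 and 427 on day 7 and 498, 519 and 484 on day 14. Its day 1 libraries all lay below day 0 (-0.95 ± 0.13, adjusted p = 4.96e-06), and days 0 and 14 overlapped. The 2 genes encode the same protein. The ratio of H3f3b to H3f3a thus changed within a day of plating and remained above its day 0 value. H3f3c, listed as a pseudogene with 67.7% of its 50-base words in H3f3a, and H3f3aos stayed at day means of 0.651 to 1.46 and 0.124 to 0.501 CPM and passed no test. H3f3aos overlaps H3f3a on the other strand, and the strandedness of the counting is not given, so its reads may be those of H3f3a.

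Among the linker variants, H1f0 encodes H1.0, the form known from cells that no longer divide. It had 376, 339 and 408 CPM on day 0, 277, 304 and 309.7 on day 4, 369.7, 471 and 191 on day 7 and 245, 292 and 266 on day 14. No comparison called it, and day 7 spanned the widest range. The closest was day 14 against day 0 (-0.48 ± 0.22, adjusted p = 0.0598), a call that turned on the processing. It passed with DESeq2 size factors (-0.59, adjusted p = 0.0221), no count filter (adjusted p = 0.0437), only the libraries compared (adjusted p = 0.000196), the DESeq2 Wald test (adjusted p = 0.0149), without day 7 library B (adjusted p = 0.027) and without day 7 library C (adjusted p = 0.00144). In limma on TPM the sign was opposite and not called (0.34 with a pseudocount of 1, adjusted p = 0.167), and the mean TPM was 195 on day 0 and 247 on day 14. H1fx, the H1.10 gene, was scarce and went from 0.495, 0.214 and 0.471 CPM on day 1 to 1.27, 1.38 and 1.28 on day 2 and 2.18, 2.79 and 2.15 on day 4 (day 4 against day 0 2.24 ± 0.37, adjusted p = 4.29e-05).

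**Figure D3:**
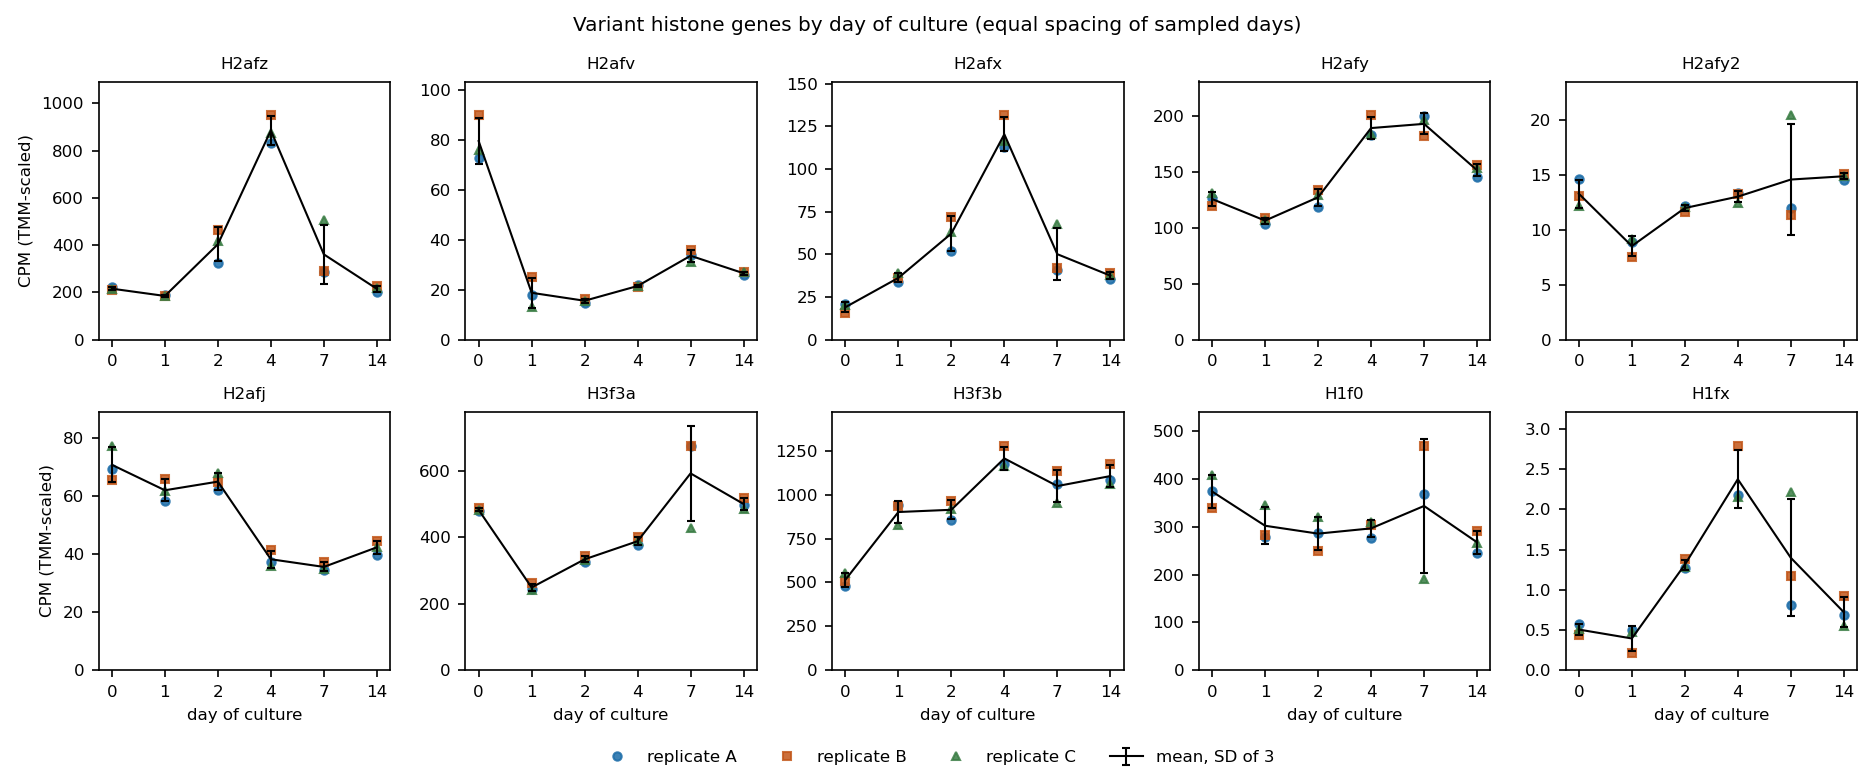
CPM of the tested variant genes (vertical axes) over the days of culture (horizontal axes); points are the 3 libraries of a day, lines join their means and bars are the SD. H2afz and H2afx peak on day 4, H3f3b steps up and H3f3a and H2afv step down on day 1, and H1f0 spreads most on day 7.

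Counted over the consecutive steps, 39 cluster genes and 12 variants could be tested. A gene expressed on a single day passes the filter through that day, so the counts describe the genes that passed and are set beside the share of all 18754 genes called. On day 1 against day 0, 5 cluster genes rose and 1 fell, while 2 variants rose and 5 fell. The shares over all genes were 33.1% higher and 37.1% lower, and those of the cluster genes, 12.8% and 2.56%, lay below both. Leaving out any of 5 of the 6 libraries compared took the 5 risers to 2 or 3, and 4 fell without day 1 library C and 3 without day 7 library C. Which of the variants fell depended on the scaling: by library sizes alone 2 fell. On day 2 against day 1, 8 cluster genes rose and 2 fell, and 6 variants rose and none fell (edgeR; 0 at an unadjusted p under 0.05, and 0 by DESeq2), beside 17.0% and 17.5% of all genes. Without day 7 library C, which enters the shared spread, 4 cluster genes fell, and without day 1 library C 1 variant fell. On day 4 against day 2, 8 cluster genes rose and 9 fell, and 6 variants rose and 1 fell, beside 19.4% and 22.1%.

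From day 4 to day 7 more cluster genes fell than rose. On day 7 against day 4, 6 cluster genes rose and 10 fell, and 2 variants rose and 2 fell, beside 22.0% and 15.9% of all genes. Without day 7 library C 14 fell, and without library B 3 rose. On day 14 against day 7, 6 cluster genes rose and 2 fell, and no variant rose (edgeR; 2 at an unadjusted p under 0.05, and 1 by DESeq2) and 2 fell, beside 5.07% and 7.46%. This last step is the least settled: without day 14 library B no cluster gene rose, without day 7 library C or any day 14 library 1 fell, without day 7 library C 1 variant rose and 4 fell, and with only the libraries of those days no histone gene was called. Over longer spans, 15 cluster genes rose and 11 fell on day 4 against day 0, with 5 and 3 variants. The shares over all genes were 38.1% and 36.8%. Hist1h1b, Hist1h2ab, Hist1h2af, Hist1h2ag and Hist1h3b, with 0 counts on day 0, are among the 15. On day 14 against day 0, 14 cluster genes rose and 9 fell, with 3 and 2 variants, beside 37.4% and 32.1%. By library sizes alone 21 cluster genes rose and 3 fell there, with 8 and 1 variants. The day 4 and day 14 shares of cluster genes called higher were near those of all genes. By family, day 4 against day 0 had 7 of 13 tested cluster H2A genes higher and 4 lower, none of 11 H2B genes higher (edgeR; 0 at an unadjusted p under 0.05, and 0 by DESeq2) and 5 lower, 3 of 4 H1 and 2 of 5 H3 genes higher, and 3 of 6 H4 genes higher and 2 lower. The median log2 fold change was 1.5 over the H2A genes and -0.71 over the H2B genes, beside 0.08 over all genes. The H2A genes in these counts are not separate observations. Among the lower, 100% of the 50-base words of Hist2h2aa2 stand in Hist2h2aa1 and 65.5% of those of Hist1h2al in Hist2h2aa2. Among the higher, 93.5% of those of Hist1h2ao and 71.8% of those of Hist1h2ag stand in Hist1h2ap.

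**Figure D4:**
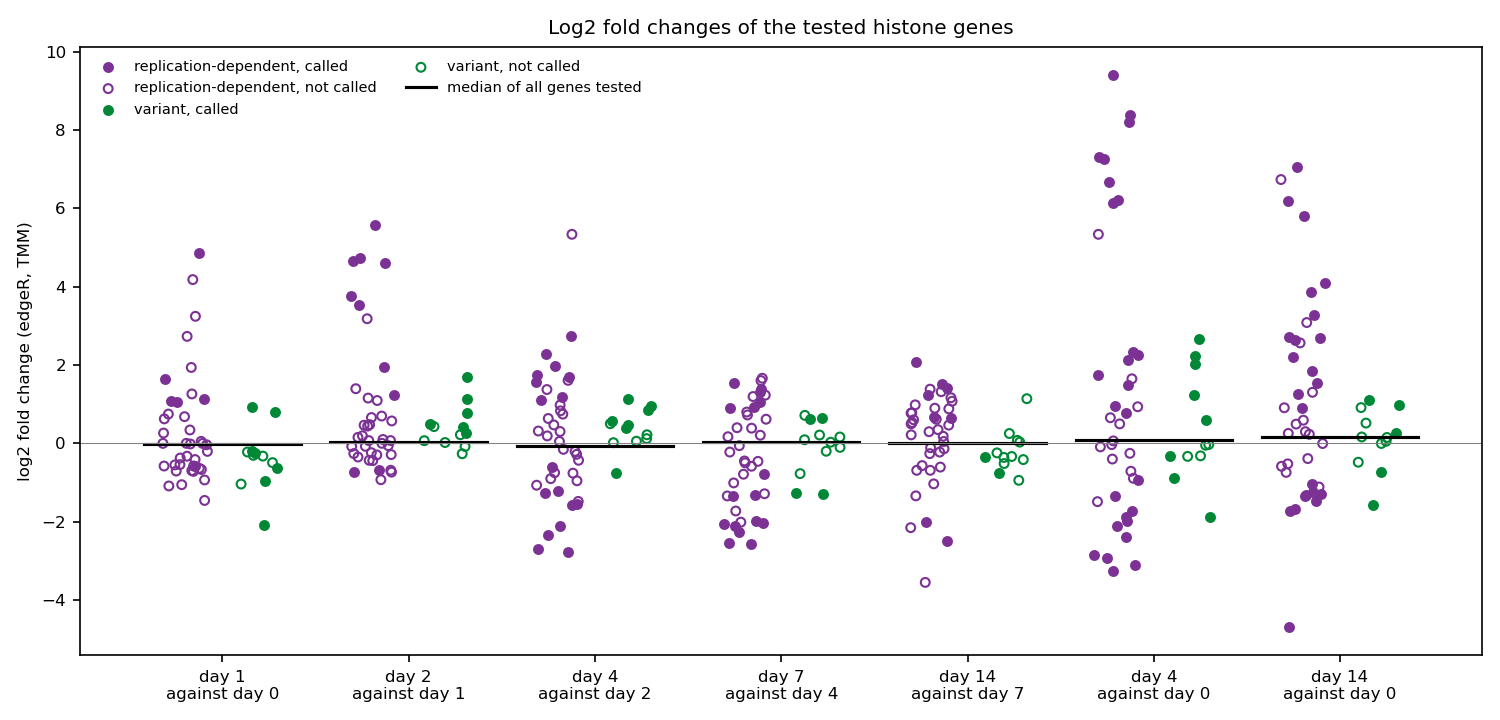
Log2 fold changes of the tested histone genes (vertical axis) in each of the 7 comparisons (horizontal axis), 1 point a gene, filled where the adjusted p was under 0.05, with a black bar at the median of all genes tested. Called replication-dependent genes lie on both sides of 0 on day 4 against day 0, where the fold changes reach farthest up.

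The H2A and H2B genes of the clusters often start back to back, and the data give the mRNA of both sides. Among the members 13 such pairs, all of them cluster genes, have starts 175 to 305 bases apart. In 6 of these pairs both genes were tested. On day 4 against day 0 the H2A gene rose in 5 of the 6 (Hist1h2ap, Hist1h2ao, Hist1h2ag, Hist1h2ae and Hist2h2ac). The H2B gene rose in none of the 6 and fell in 2 (Hist1h2bq and Hist1h2bc). Over all genes, 38.1% rose and 36.8% fell. The H2A genes are not separate observations: 93.5% of the 50-base words of Hist1h2ao and 71.8% of those of Hist1h2ag stand in Hist1h2ap. Hist1h2ag had 0 counts on day 0 and its highest mean on day 4, so it may have passed the filter through the day compared. The partners are named because of their position, not their values. Hist1h2br, across the printed window from Hist1h2ap, had a mean of 0.157 TPM on day 4 against 764 TPM for Hist1h2ap. The identical windows of Hist1h2bq and Hist1h2br go with 97.3% of Hist1h2bq's 50-base words standing in Hist1h2br, so these were also summed: the pair had 0.778 ± 0.119 CPM on day 0, 0.571 ± 0.265 on day 4 and 1.77 ± 0.547 on day 14 (mean ± SD, n = 3). In the pair of Hist1h2ac and Hist1h2bc the H2B side was the higher, with means of 0.360 TPM for Hist1h2ac and 244 TPM for Hist1h2bc on day 0. The difference between the sides of a pair was not tested, and the annotated transcripts of the partners differ in length and end.

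**Figure D5:**
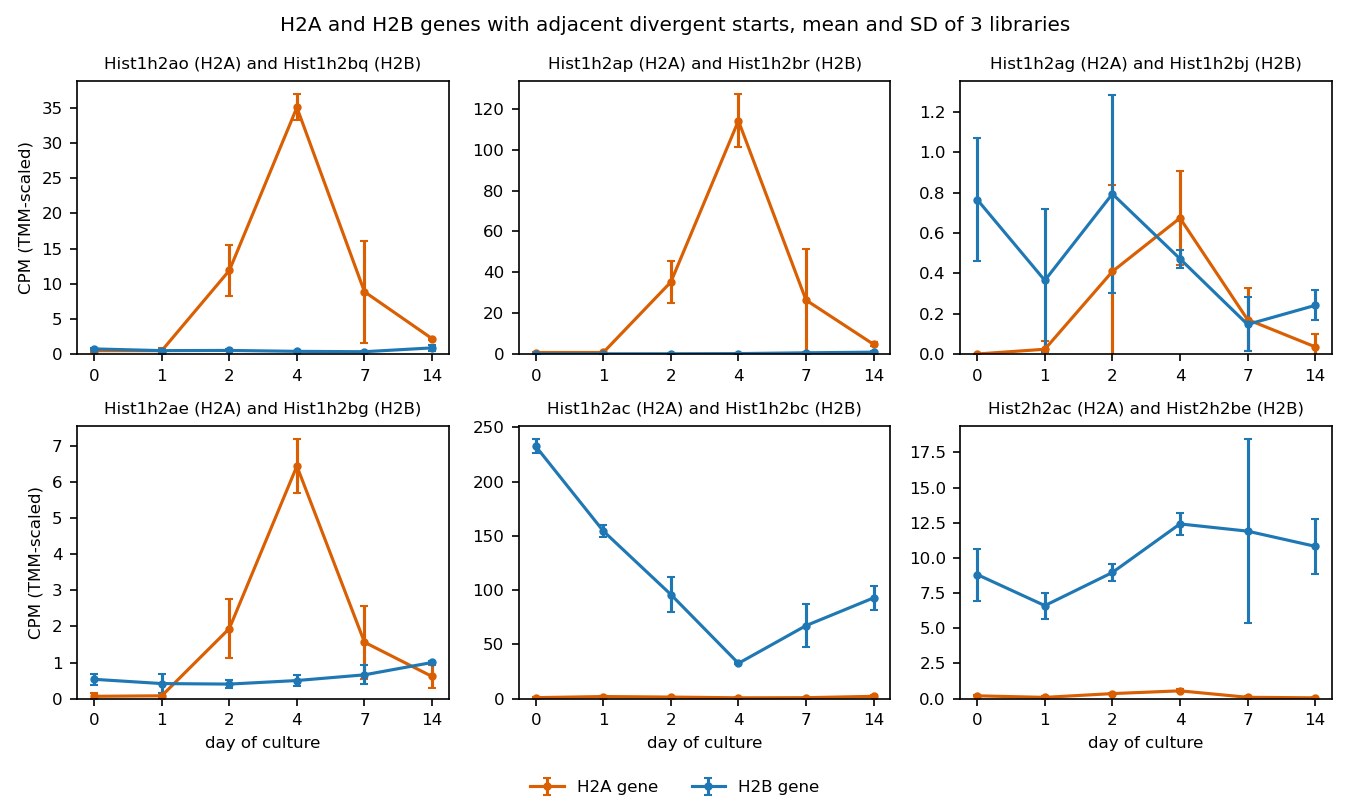
Mean CPM of the H2A and H2B genes of the divergent pairs in which both were tested (vertical axes) over the days of culture (horizontal axes), with bars for the SD of 3 libraries and axes that start at 0. The H2A side of the Hist1h2ap and Hist1h2ao pairs peaks on day 4 while the H2B side stays near 0, and Hist1h2bc falls from day 0 to day 4.

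Grouped by annotated end, cluster genes whose transcript stops within 100 bases of the hairpin summed to 50.3 ± 1.84 CPM on day 0, 161 ± 11.2 on day 4 and 28.3 ± 2.64 on day 14, of which Hist1h2ap and Hist1h2ao held 149 ± 11 on day 4. Those whose transcript runs on summed to 131 ± 28.8, 85.6 ± 12.2 and 305 ± 61.1 CPM, most of it Hist1h1c. Those with no hairpin in the annotation summed to 244 ± 5.43, 51.9 ± 2.78 and 107 ± 13.8 CPM, most of it Hist1h2bc. Each group is therefore led by 1 or 2 genes. Shared sequence also separates the classes: the median share of 50-base words found in another gene's transcript was 45.8% over the 39 tested cluster genes and 4.15% over the 12 tested variants, and it was at least 50% in 18 and in 1 of them. Values of single cluster genes with such copies are uncertain to that extent.

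Summed by list, replication genes and most groups of genes that act on histones were highest on day 4, but the H3.3 chaperones were highest on day 14. Calls were common among all genes: 17.0% rose and 17.5% fell on day 2 against day 1, 38.1% rose and 36.8% fell on day 4 against day 0, 15.9% fell on day 7 against day 4 and 7.46% fell on day 14 against day 7. Of 24 S phase genes, 22 rose and 1 fell on day 2 against day 1, 22 fell on day 7 against day 4, and 21 fell on day 14 against day 7. In day 7 libraries A, B and C these genes summed to 715, 654 and 2326 CPM, and the calls include library C. On day 4 against day 0, 23 rose (median 3.22 beside 0.08 for all genes). The smallest adjusted p belonged to Rrm2, a subunit of ribonucleotide reductase, Lig1, the DNA ligase of replication, and Mcm7, a subunit of the replicative helicase. Pcna, the sliding clamp, had 35.3, 33.3 and 35.0 CPM on day 0 and 171, 175 and 158 on day 4. Of 13 genes for histone mRNA transcription and end formation, 11 rose and 1 fell on day 4 against day 0 (beside 38.1% and 36.8% of all genes). Slbp, which binds the hairpin shown above, had 52.5, 49.1 and 50.1 CPM on day 0, 148, 152 and 147 on day 2, 131, 141 and 129 on day 4 and 47.1, 48.0 and 48.8 on day 14 (0.84 ± 0.12, adjusted p = 9.58e-05 on day 2 against day 1). Its levels on days 2 and 4 lay above those of days 0 and 14 in every library. Npat, the coactivator of the histone clusters, had 17.9, 18.7 and 18.7 CPM on day 0 and 52.6, 47.3 and 48.4 on day 4 (1.42 ± 0.08, adjusted p = 3.67e-10). Casp8ap2, also known as FLASH, a part of the end-processing machinery, had means of 12.3, 36.9 and 16.2 CPM on days 0, 4 and 14.

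Most chaperones that bring histones to new DNA rose by day 4 and fell by day 7. All 14 replication-coupled chaperones rose on day 4 against day 0 (median 1.84, beside 38.1% of all genes called higher), 12 fell on day 7 against day 4 and 9 fell on day 14 against day 7. Asf1b, an H3 and H4 chaperone of dividing cells, had 1.23, 0.972 and 2.21 CPM on day 0, 65.9, 73.6 and 65.3 on day 4 and 2.64, 2.67 and 3.00 on day 14. Of 6 chaperones of H3.3, 5 rose (Hira and Atrx among them) and Ubn1 fell on day 4 against day 0, with a median of 0.50, beside 38.1% and 36.8% of all genes. The 6 had no day 4 peak: their summed mean was 209 CPM on day 0, 278 on day 4 and 309 on day 14. Of 7 genes for H2A.Z exchange, 6 rose on day 4 against day 0 (median 0.79, beside 38.1% of all genes), with the helicase subunits Ruvbl1 and Ruvbl2 among them. Cenpa, the centromeric H3 variant whose name the rule does not match, had 0.495, 0.342 and 0.399 CPM on day 1, 8.82, 26.5 and 19.0 on day 2, 82.8, 91.5 and 82.5 on day 4, 12, 10.8 and 54.7 on day 7 and 2.49, 2.81 and 2.74 on day 14. All 5 genes of the centromere list, Cenpa and its loading factors, rose on day 4 against day 0, and all 5 fell on day 7 against day 4 and again on day 14 against day 7. The tubule, thick limb and fibroblast marker levels given at the start moved in the same libraries, and their part in these changes was not tested.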

How the data were processed

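For the 18 libraries the authors deposited 2 gene tables, of estimated counts (whole numbers) and of TPM (divided by transcript length, with the same sum in each library). Per the submitters' processing notes, reads were handled with RSEM 1.3.3, STAR 2.7.8a, FastQC 0.11.8 and cutadapt 2.3 on GRCm38. Annotation release, read length and strandedness: not given in the sources used here. Hence reads of near-identical, overlapping or antisense genes may be divided among them.

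The 5 reporter entries of the tables were left out. From the estimated counts, CPM were computed with TMM-scaled library sizes. Genes passing filterByExpr (18754) were tested with edgeR's quasi-likelihood test in 1 model of 6 day means over 18 libraries, with calls at an adjusted p (Benjamini-Hochberg) under 0.05. The SE is the log2 fold change divided by the square root of F. Zero-count days were set at a floor of 3 counts over the 3 libraries. On counts simulated for day 4 against day 2 over 18528 genes, the test found 8, 42, 50 and 50 of 50 genes changed 1.5, 2, 4 and 8-fold and called 2 unchanged genes. The changed genes were drawn above a minimum expected count, and the spread between libraries (dispersion) was set at 0.03 throughout. These rates therefore do not apply to scarcer genes or to days with more spread. No libraries were identical, and the smallest chi-square per degree of freedom between replicates was 6.59.

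The members and gene lists were chosen with earlier results of these data known. Values of 1 listed gene are not reported here. Named genes were all tested variants, the 15 cluster genes of highest mean CPM, the 3 largest called rises and falls per comparison with at least 1 CPM, up to 3 list members of smallest adjusted p per direction, and a few fixed genes. Others are named by position in a pair, as examples of 0 counts or testis expression, or by annotated sequence. Letters were taken to pair libraries where all 3 same-letter correlations were over 0.1, which held for day 4 against day 2 alone (0.20, 0.16 and 0.29); with the letter as a block, 9 cluster genes rose and 9 fell there, and 5 variants rose and 1 fell. Each result was recomputed with library sizes alone, DESeq2 size factors, no count filter, the block, only the libraries compared, the DESeq2 Wald test, each library left out, and limma on log2(TPM + 1) for genes whose mean TPM reached 0.5, on log2(TPM + 0.1), and on log2(TPM + 1) for every gene. Gene models came from GENCODE vM21 and promoters from RefSeq (GRCm38.p6). Software was Python 3.11.15 with pandas 2.3.3 and matplotlib 3.10.9, and R 4.3.3 with DESeq2 1.42.0, limma 3.58.1 and edgeR 4.0.16.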

Additional observations from a re-analysis of the deposited data

Results flagged for a closer look

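Among the names that the rule left out for ending in -ps, 2 carried reads although they are not counted among the members. H3f3a-ps1 held 3000 estimated counts over the 18 libraries (55 to 301 per library) and H3f3a-ps2 held 2507 (44 to 215 per library), while Hist3h2bb-ps held 16 and H2af-ps held 0. Both H3.3 pseudogenes thus stood above the limit that a count of 0 allows, and above the total of each of the 12 cluster H3 genes. How far reads of H3f3a were divided among them was not tested.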

How the results depend on the processing

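Leaving out each library in turn kept 487 of 504 counts of called genes within 1.5 times and 717 of 720 single-gene results on their side of the threshold; the other alternatives kept 209 of 252 and 344 of 360. The replicate block moved no count by over 1.5 times: cluster genes numbered 4 higher in place of 5 on day 1 against day 0, 9 higher in place of 8 on day 4 against day 2, 10 lower in place of 11 on day 4 against day 0 and 8 lower in place of 9 on day 14 against day 0, and variants 5 higher in place of 6 on day 4 against day 2. The other counts kept their size, and no single gene followed here crossed the threshold with it. Outside day 4 against day 2, same-letter correlations were, for example, 0.03, 0.12 and 0.42 on day 2 against day 1. With 1 library left out, cluster genes called higher ranged from 2 to 6 on day 1 against day 0, 3 to 7 on day 7 against day 4 and 0 to 8 on day 14 against day 7. Cluster genes called lower ranged from 1 to 4 on day 1 against day 0, 2 to 4 on day 2 against day 1 and 1 to 3 on day 14 against day 7. Variants called lower ranged from 0 to 1 on day 2 against day 1 and 2 to 4 on day 14 against day 7, where those called higher ranged from 0 to 1.

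For cluster genes lower on day 1 against day 0 (1), DESeq2 size factors and no filter gave 2, the DESeq2 Wald test 3, and library sizes alone and limma on TPM with either pseudocount 0; for those higher (5), limma with a pseudocount of 0.1 gave 9. Day 2 against day 1 had 4 higher with only the libraries compared and 13 in limma without a filter (8). Day 7 against day 4 had 3 higher with only the libraries compared (6). Day 14 against day 7 had 0 higher with only the libraries compared, 3 with no count filter, and 11 and 10 in limma with and without its filter (6), and 0 and 1 lower (2). Day 14 against day 0 had 23 higher in limma without a filter (14), and 3 lower by library sizes alone and in limma on log2(TPM + 1), with or without its filter, and 2 with a pseudocount of 0.1 (9).

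For variants lower on day 1 against day 0 (5), library sizes alone and the 3 limma settings gave 2 and only the libraries compared 3. Day 7 against day 4 had 1 higher with only the libraries compared (2). Day 14 against day 7 had 1 higher by library sizes alone, the DESeq2 Wald test and limma, and 2 without its filter (0), with 0 lower with only the libraries compared and 1 in limma without a filter (2). Day 14 against day 0 had 8 higher by library sizes alone and in limma, 10 without its filter (3), and 1 lower in all of these (2).

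Single genes that changed direction were H1f0 on day 14 against day 0 (0.08 by library sizes alone and 0.34, 0.35 and 0.34 in limma, none of them called, beside -0.48, also not called), H2afj on day 14 against day 0 (0.02 in limma at all 3 settings, beside -0.74) and H2afz on day 14 against day 0 (0.56 by library sizes alone and 0.83 in limma at all 3 settings, beside 0.00). The cause of these differences was not tested. Depth limits the scarce genes most: 36 members were too low to test.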
